A study of Mus musculus with 8 samples.

Results

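The mitochondrial ribosomal protein genes are the nuclear genes for the protein subunits of the ribosome that works inside mitochondria. They were taken from the table of raw counts as every gene identifier that maps to a protein-coding symbol beginning Mrpl or Mrps followed by a number. Of 32726 gene identifiers, 77 were chosen in this way, 48 Mrpl genes (large subunit) and 29 Mrps genes (small subunit). The level of the transcripts played no part in the choice. The symbols of 2 of the 77, Mrpl57 and Mrpl58, were reached through older names. Rows for 5 pseudogenes with such symbols were left out, and Mrpl33 was not analysed here.

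Poly-A RNA was sequenced from primary neurons of mouse embryos of the third week of gestation, kept for 5 days in serum-free culture. The 4 KO libraries came from neurons without Nuak1, a kinase related to AMPK, and the 4 WT libraries from wild-type neurons, with no other treatment in either group. The knockout was constitutive, so every cell of the embryo lacked the gene, and the mice were kept on a C57Bl/6JRj background. The labels give the tissue as cortex or hippocampus without saying which for each library, put 2 libraries of each genotype on each of lanes A and B, and carry a strain label that is not explained (BJ in 3 KO libraries, BO and BQ in 1 WT library each, BK in 1 KO and 2 WT libraries). The study itself describes the cultured neurons as cortical. The study's methods give 4 animals per condition for RNA sequencing, while the labels do not tie a library to an embryo or culture.

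Libraries held between 31247078 and 67155004 counts (median 39224504). Nuak1 had 86 to 102 counts in KO and 1612 to 4598 in WT. Levels are given as CPM, the count scaled by the library total. Neuronal markers summed to 7270 to 8500 CPM in the KO libraries and 7370 to 8070 in the WT libraries, with 4 of 9 higher in KO and 1 lower at an unadjusted p under 0.05, a threshold at which 4.71% of all tested genes were higher and 5.78% lower. The 10 microglial markers summed to between 3.36 and 37.9 CPM (KO) and between 3.86 and 16.5 (WT). Of these, 6 of 7 tested genes were higher in KO, and P2ry12, Tmem119 and Itgam stayed under 1 CPM in every library. The 9 endothelial and fibroblast markers summed to between 12.3 and 21.6 CPM (KO) and between 6.40 and 35.6 (WT), with Cdh5, Cldn5 and Flt1 under 1 CPM. The sum of astrocyte markers was between 724 and 1400 CPM (KO) and between 696 and 1040 (WT), with all 7 higher in KO and none at an unadjusted p under 0.05. The 4 hippocampal markers summed to between 91.4 and 161 CPM (KO) and between 98.5 and 151 (WT), with all 4 higher in KO, 2 of them at an unadjusted p under 0.05 (4.71% of all tested genes), and 2 of 5 cortical markers were higher in KO. The parts of these cell types in the results were not tested. Libraries KO1 and WT1, both on lane A, stood apart from the other 6 on the first principal component, which held 70.8% of the variance (scores of -25.4 and -27.4 against 1.21 to 18.3).

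Mitochondria keep a small genome of their own that encodes core subunits of the respiratory chain, and a dedicated ribosome, the mitoribosome, translates these few messages at the inner membrane. Its RNAs are transcribed from mitochondrial DNA, while all of its proteins are made in the cytosol from nuclear genes and imported, so the organelle depends on the coordinated supply of many nuclear products. Part of these proteins have a counterpart in bacterial ribosomes and the rest are found only in mitochondria. Inherited defects in several of them cause disorders of oxidative phosphorylation that often affect the brain.

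The mitochondrial ribosomal protein genes were transcribed at moderate and unequal levels in these neurons. The genes lay on 17 chromosomes, and the 76 that passed the filter on low counts had mean levels of 0.598 to 63.8 CPM, with a median of 17.0 CPM. Levels between genes are compared per kilobase of exon, where the median was 8.46 CPM per kb, with quartiles of 4.82 and 12.4. The median was 8.84 CPM per kb for the 47 Mrpl genes and 8.40 for the 29 Mrps genes. In that order 7 genes stood above 20 CPM per kb and 4 of the tested genes below 3.

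The gene with the highest level per kb of exon was Mrpl11, a protein of the stalk base of the large subunit, at 36.2 ± 5.69 CPM per kb (SD, n = 8 libraries). Mrpl42 followed at 35.0 ± 2.49 CPM per kb, which is within the spread of Mrpl11. Mrps17, a small subunit protein with a bacterial counterpart, stood at 27.4 ± 2.39 CPM per kb, Mrpl20 at 27.3 ± 5.88 and Mrpl32 at 26.0 ± 1.71, and these 3 did not differ from each other beyond their spread. When the longest coding transcript was used for the length in place of all exons, the order changed. Mrpl30 (41.8 CPM per kb of transcript) and Mrpl20 (39.5) then stood above Mrpl11 (36.2), Mrpl37 (35.1) and Mrpl42 (35.0). A stretch of over 90% of the Mrpl42 and Mrpl32 transcripts had a near-identical copy elsewhere in the genome (94.4% and 97.9% of their length), so that reads with more than one possible origin, which the authors discarded, could lower these counts.

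At the low end, Mrps36 stood at 0.469 ± 0.170 CPM per kb, with 9 to 48 counts in a library. The product of this gene has since been assigned to the 2-oxoglutarate dehydrogenase complex and not to the ribosome. Of its transcript, 89.9% had a copy elsewhere. The next 3 were Mrpl23, a protein at the exit of the peptide tunnel, at 2.28 ± 0.243 CPM per kb, Mrpl13 at 2.55 ± 0.295 and Mrps28 at 2.96 ± 0.893, whose ranges of mean ± SD overlapped from each to the next. This order depends on the length used: per kb of the longest coding transcript Mrpl13 stood at 16.5 and Mrpl23 at 5.85 CPM, away from the low end, while Mrps36 (0.853) and Mrps28 (2.96) stayed the lowest of the tested genes. Mrpl53, a protein of the stalk region, was the 1 gene of the 77 that failed the filter, with 0 counts in 7 libraries and 2 counts in WT3. A count of 0 allows up to 3 counts at this depth. The body of Mrpl53 overlaps that of Ccdc142. The authors' counting mode leaves reads on both genes uncounted, unless its strand setting, which is not given, tells the genes apart. The part of this overlap in the low count was not tested.

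**Figure D1:**
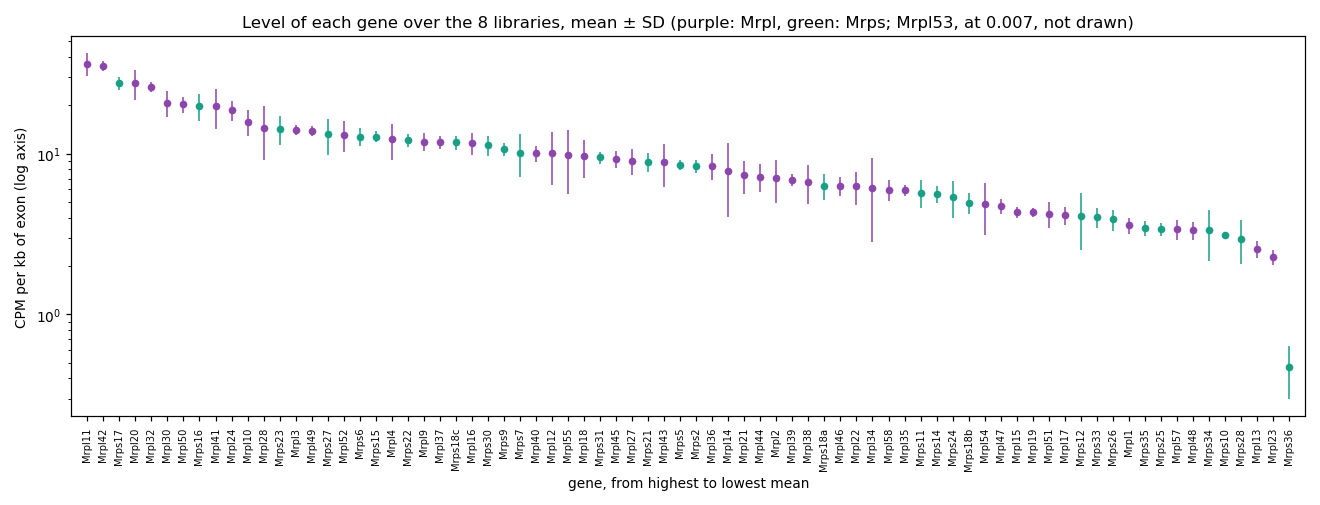
Level of each mitochondrial ribosomal protein gene in CPM per kb of exon (vertical log axis), ordered from highest to lowest mean. Points are means and bars SDs over all 8 libraries, purple for Mrpl and green for Mrps symbols, and Mrpl53, at 0.007 CPM per kb, is not drawn; the 5 highest genes lie between 26.0 and 36.2 and Mrps36 lies apart at 0.469.

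The promoters, which played no part in the choice of genes, were described by their neighbours and by short motifs. Of the 77 genes, 68 had an entry in the RefSeq promoter table (build GRCm38.p6, from 250 bases before the annotated start to 50 after it). Of these 68, 26 (38.2%) lay head to head with another gene of that table, of any type. Their starts lay at most 1000 bases apart on opposite strands. The share was 18.8% among the 10728 tested protein-coding genes with an entry. The partners included further genes of mitochondrial function: Mrps12 faced Sars2 (mitochondrial seryl-tRNA synthetase), Mrpl43 faced Twnk (the helicase of mitochondrial DNA) and Mrpl47 faced Ndufb5 (a complex I subunit). In the case of Mrpl46 and Mrps11, a large and a small subunit gene faced each other with 42 bases between their starts.

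The letters of 6 motifs were searched on both strands. The letters GCGCA, any base, then GCGC, the core bound by NRF1, a regulator of nuclear genes for mitochondria, occurred in 13 promoters (19.1%) against 11.1% of the tested protein-coding genes. The ETS-type letters CCGGAAGT, of the kind bound by GABP, occurred in 11 (16.2%) against 8.57%, and the YY1-type letters AAGATGGCG in 8 (11.8%) against 3.31%. Of the 68 promoters, 30 held at least 1 of these 3 and 38 held none. The SP1-type letters GGGCGG occurred in 50% against 69.0%, the letters CCAAT in 38.2% against 43.1%, and the letters TATAAA in 7.35% against 8.69%. These shares are descriptions with no test, and a match is not evidence of binding.

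Below, 6 windows of 200 bases are shown 5′ to 3′, from 170 bases before the start to the first 30 bases from it, with matches to the NRF1, ETS and YY1 letters on either strand in capitals. Mrps6 and Mrps26 had the smallest p-values of the comparison given further on, Mrpl12 and Mrpl45 carry 1 and 3 NRF1 matches, Mrps27 carries both an ETS and a YY1 match, and the last window holds the shared start region of Mrps11 and Mrpl46.
Mrps6, chr16:92058166-92058365, plus strand: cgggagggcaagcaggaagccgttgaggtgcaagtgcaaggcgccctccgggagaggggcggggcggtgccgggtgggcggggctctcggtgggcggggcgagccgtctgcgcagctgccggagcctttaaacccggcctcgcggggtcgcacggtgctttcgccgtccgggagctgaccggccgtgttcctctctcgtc
Mrps26, chr2:130563587-130563786, plus strand: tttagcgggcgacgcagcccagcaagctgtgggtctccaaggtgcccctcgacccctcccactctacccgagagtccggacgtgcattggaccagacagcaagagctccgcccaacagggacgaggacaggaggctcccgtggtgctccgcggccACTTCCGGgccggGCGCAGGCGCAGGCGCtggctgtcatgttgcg
Mrpl12, chr11:120484467-120484666, plus strand: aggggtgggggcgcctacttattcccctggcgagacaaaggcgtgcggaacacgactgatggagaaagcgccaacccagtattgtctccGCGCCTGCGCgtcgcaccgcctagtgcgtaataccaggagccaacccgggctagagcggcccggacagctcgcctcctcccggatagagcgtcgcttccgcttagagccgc
Mrpl45, chr11:97315546-97315745, plus strand: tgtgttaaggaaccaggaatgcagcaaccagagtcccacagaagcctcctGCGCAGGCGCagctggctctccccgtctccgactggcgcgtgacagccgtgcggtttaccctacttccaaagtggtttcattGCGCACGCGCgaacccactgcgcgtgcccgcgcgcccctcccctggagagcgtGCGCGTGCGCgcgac
Mrps27, chr13:99344616-99344815, plus strand: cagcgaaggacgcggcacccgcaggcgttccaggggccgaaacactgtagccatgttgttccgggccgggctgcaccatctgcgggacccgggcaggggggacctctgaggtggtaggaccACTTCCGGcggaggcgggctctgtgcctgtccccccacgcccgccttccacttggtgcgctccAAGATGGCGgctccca
Mrps11 and, on the other strand, Mrpl46, chr7:78782961-78783160, plus strand: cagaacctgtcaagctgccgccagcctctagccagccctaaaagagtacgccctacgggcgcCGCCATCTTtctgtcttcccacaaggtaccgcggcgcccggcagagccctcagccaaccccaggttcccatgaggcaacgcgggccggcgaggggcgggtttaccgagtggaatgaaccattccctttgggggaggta
The Mrps6 window held none of the 3 motifs, while in Mrps26 an ETS match and 2 overlapping NRF1 matches lay within 15 bases of the start. The 13 tested genes with an NRF1 match had a median log2 fold change of 0.052 (KO over WT) and the 54 without one 0.051. The medians were 0.096 with an ETS match (11 genes) and 0.050 without (56 genes), and 0.058 for genes in head-to-head pairs (26) and 0.052 for the rest (41).

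The summed transcript level of the mitochondrial ribosomal protein genes overlapped between the genotypes. The 77 genes summed to 1316, 1494, 1516 and 1548 CPM in libraries KO1 to KO4, and to 1176, 1314, 1560 and 1460 CPM in WT1 to WT4. The means were 1469 ± 104 CPM in KO and 1378 ± 168 in WT (SD, n = 4 each), and the difference of 91.0 CPM was smaller than either SD. With TMM scaling, which corrects library totals for composition and was used in the tests, it was 57.2 CPM. On the CPM scale it was 24.0 CPM without WT1, 142 without KO1 and 152 without WT3. The highest sum was that of a WT library (WT3) and the lowest that of another (WT1). In bulk RNA, fewer neurons and less RNA per neuron cannot be told apart.

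The balance of the subunits was steadier than the sum. The summed CPM of Mrpl genes divided by that of Mrps genes was 1.664, 1.644, 1.658 and 1.692 in KO1 to KO4 and 1.611, 1.660, 1.668 and 1.638 in WT1 to WT4. The means were 1.665 ± 0.020 and 1.644 ± 0.026 (SD, n = 4), and the ranges overlapped. Mrps18a and Mrps30 are named for the small subunit but sit in the large one, and with both counted there the ratio was 1.886 ± 0.026 in KO and 1.867 ± 0.023 in WT, again with overlap.

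**Figure D2:**
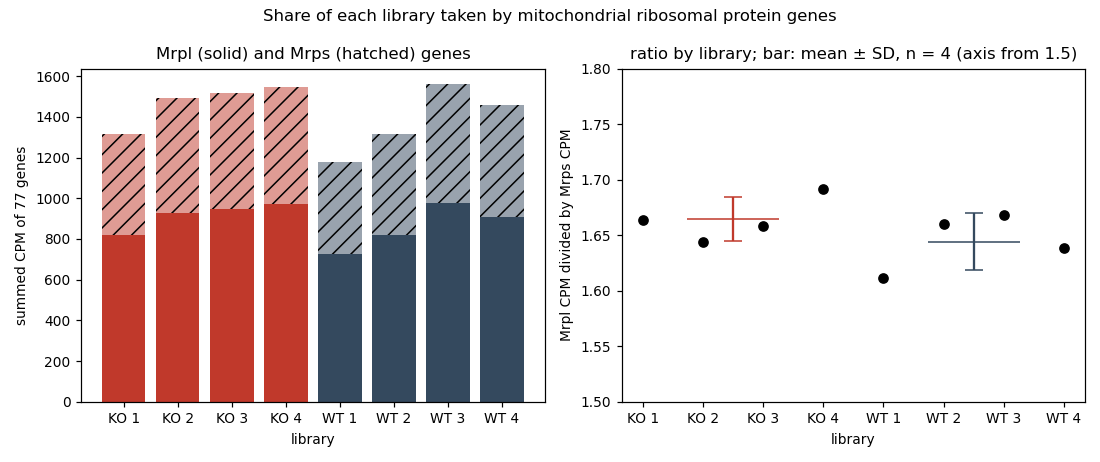
Left, summed CPM of the 77 genes in each library (solid, Mrpl; hatched, Mrps; red, KO; grey, WT), from 1176 in WT1 to 1560 in WT3. Right, Mrpl CPM divided by Mrps CPM in each library (points) with mean ± SD, n = 4 (bars), on an axis that starts at 1.5; the ratios of KO (1.644 to 1.692) and WT (1.611 to 1.668) overlap.

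Whether loss of Nuak1 was accompanied by a change of single genes was tested with edgeR's quasi-likelihood F test over all 16272 genes that passed the filter. None of the 76 tested mitochondrial ribosomal protein genes passed a Benjamini-Hochberg (BH) adjusted p of 0.05, a threshold passed by 0.0492% of all genes tested, and the lowest adjusted p was 0.345 (edgeR). DESeq2 and limma-voom also called 0 of them, with lowest adjusted p-values of 0.153 (DESeq2) and 0.370 (limma-voom), where DESeq2 called 1.23% of all genes it tested.

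Below that threshold the values leaned towards KO. At an unadjusted p under 0.05, 8 of the 76 (10.5%) were higher in KO and 0 lower, against 4.71% of all tested genes higher and 5.78% lower. DESeq2 gave 6 higher and 0 lower (3.63% and 5.91% of all genes), and limma-voom 7 and 0 (4.82% and 5.65%). This count rested on the model: it was 1 with no surrogate variable (a factor estimated from the counts for unwanted variation), 2 with lane as a term in place of it and 12 with 2 surrogate variables, where 0.867%, 1.19% and 7.57% of all genes were higher at that threshold. Leaving out single libraries moved it between 2 (without KO2, where 2.21% of all genes were higher) and 13 (without WT3, where 7.07% were). It was 4 without KO3 or WT1 (2.97% and 2.17% of all genes) and 3 without KO4 or WT2 (4.54% and 3.94%). In 4 genes, Mrps6, Mrpl48, Mrps33 and Mrpl3, the CPM of the 4 KO libraries lay wholly above those of the 4 WT libraries (5.26%, against 1.54% of all genes), and in 0 wholly below (0.86% of all genes). These ranges are of CPM by library total, without the TMM factors (1.005 in KO1, 1.03 in KO2, 1.02 in KO3 and 0.975 in WT1). Factors of that size close the gaps of Mrpl48 and Mrpl3 to WT1 and about match that of Mrps33. Mrps6 stays apart under the factors of all 8 libraries.

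The differences were small. The median log2 fold change of the 76 genes was 0.050 (KO over WT), with 51 genes (67.1%) above 0 and 25 below, against a median of 0.014 and 53.4% above 0 over all tested genes. Among the 2342 tested genes of like abundance (10.3 to 23.4 CPM, the interquartile range of the mitochondrial ribosomal protein genes), the median was 0.027 with 58.4% above 0. Single values ran from -0.25 for Mrpl52, a protein of the central protuberance, to 0.26 for Mrps6, and 1 gene of 76 (1.32%) had an absolute log2 fold change above 0.25, against 18.9% of all tested genes. Within lanes the median was 0.024 (lane A) and 0.030 (lane B), and with strain label as a covariate it was 0.17. Since BJ, BO and BQ each occur in 1 genotype only, genotype in every fit with strain label rests on KO4 against WT2 and WT4. The 78 genes of the cytosolic ribosome, 76 of them tested, had a median of 0.091 with 58 above 0, 16 higher (21.1%) and 3 lower (3.95%) at an unadjusted p under 0.05, against 4.71% and 5.78% of all tested genes. At a BH adjusted p of 0.05 edgeR called 0 of them and DESeq2 called 1, where 0.0492% (edgeR) and 1.23% (DESeq2) of all genes were called.

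Large and small subunit genes gave like values. The median log2 fold change was 0.061 for the 47 Mrpl genes (32 above 0, 5 higher at an unadjusted p under 0.05, or 10.6%) and 0.035 for the 29 Mrps genes (19 above 0, 3 higher at that threshold, or 10.3%), against 4.71% of all tested genes. With Mrps18a and Mrps30 counted in the large subunit the medians were 0.052 and 0.035. The difference of 0.026 between the subunits by symbol was smaller than its SD between libraries of one genotype, 0.064. Genes with a bacterial counterpart had a median of 0.069 (33 of 47 above 0) and those found only in mitochondria one of 0.024 (18 of 29 above 0).

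**Figure D3:**
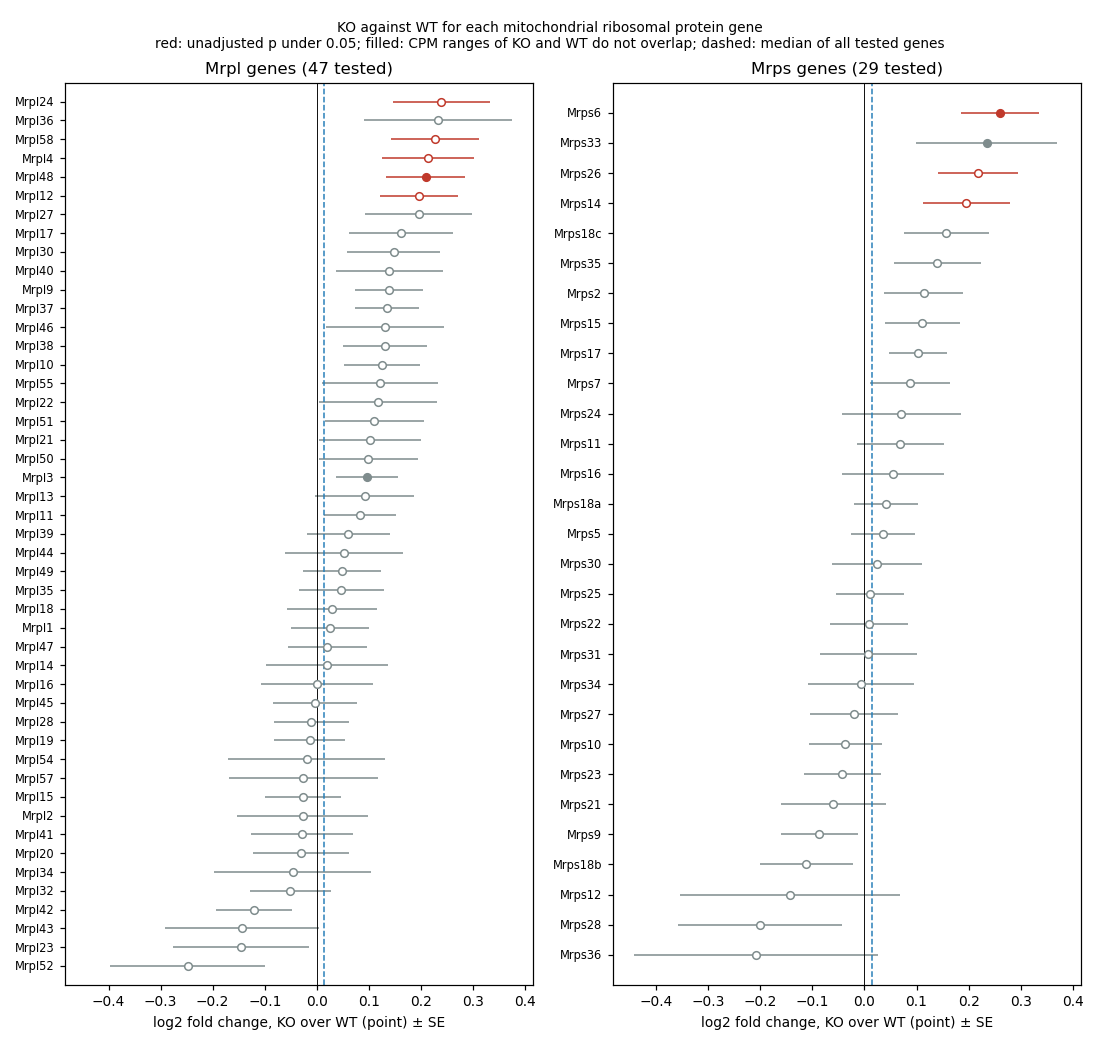
Log2 fold change of KO over WT for each tested gene (points) with its standard error (bars), Mrpl genes on the left and Mrps genes on the right, each ordered by value. Red marks the 8 genes at an unadjusted p under 0.05, filled points the 4 genes whose CPM ranges did not overlap, and the dashed line the median of all 16272 tested genes (0.014).

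Among the small subunit genes, Mrps6, (ENSMUSG00000039680, chromosome 16, 92058336 to 92112227 on GRCm38, the build of all gene positions given here), which encodes the counterpart of the bacterial S6 protein, had the smallest p. It stood at 22.9, 23.0, 23.0 and 20.5 CPM in KO1 to KO4 and at 17.5, 16.5, 19.6 and 19.3 CPM in WT1 to WT4, so that every KO library lay above every WT library. The means were 22.4 ± 1.23 and 18.2 ± 1.47 CPM, with a log2 fold change of 0.26 (SE 0.074, unadjusted p 0.00584, adjusted p 0.345, edgeR). Lane A alone gave 0.21 and lane B alone 0.30. The body of Mrps6 overlaps Slc5a3, whose log2 fold change was -0.14 (SE 0.087), and no other stretch of the genome matched the Mrps6 transcript.

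Mrps26 (chromosome 2, 130563757 to 130565394), found only in mitochondrial ribosomes, stood at 15.4, 19.3, 19.0 and 19.97 CPM in KO1 to KO4 and at 13.0, 14.3, 17.4 and 17.5 CPM in WT1 to WT4. KO1 lay among the WT values and the other 3 KO libraries above them (log2 fold change 0.22, SE 0.077, adjusted p 0.396, edgeR). Mrps14 (chromosome 1, 160195215 to 160201186), whose human counterpart is mutated in a mitochondrial disease, stood at 17.1, 21.0, 20.1 and 20.6 CPM in KO1 to KO4 and at 16.1, 14.9, 19.4 and 17.0 CPM in WT1 to WT4. Here WT3 lay above KO1 and the ranges overlapped (log2 fold change 0.20, SE 0.084, adjusted p 0.467, edgeR). On lane A alone the log2 fold change of Mrps14 was 0.071, against 0.30 on lane B.

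Mrps33 (ENSMUSG00000029918, chromosome 6, 39801804 to 39810936), a protein without a bacterial counterpart, had a low level (4.03 CPM per kb) and ranges that did not overlap. It stood at 5.26, 5.41, 5.35 and 5.71 CPM in KO1 to KO4 and at 5.12, 3.45, 4.55 and 5.00 CPM in WT1 to WT4, so that WT1 came within 0.2 CPM of KO1. Its log2 fold change of 0.23 had an SE of 0.14 (adjusted p 0.562, edgeR) and was 0.14 without WT2 and 0.43 with strain label as a covariate, and 55.7% of its transcript had a copy elsewhere in the genome.

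The other genes at an unadjusted p under 0.05 belong to the large subunit. Mrpl48 (ENSMUSG00000030706, chromosome 7, 100545779 to 100608301), of the central protuberance, stood at 24.95, 21.8, 21.0 and 21.3 CPM in KO1 to KO4 and at 20.7, 15.9, 19.0 and 19.3 CPM in WT1 to WT4, with no overlap and a gap of under 0.3 CPM between KO3 and WT1. Its log2 fold change was 0.21 (SE 0.076, unadjusted p 0.0208, adjusted p 0.405, edgeR). The genes Mrpl48 and Rab6a overlap, and Rab6a had a log2 fold change of 0.0036 (SE 0.10).

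Mrpl24 (chromosome 3, 87918131 to 87923450), at the exit of the peptide tunnel, had the highest level per length of the 8 (18.6 CPM per kb) and stood at 42.65, 49.5, 47.1 and 44.1 CPM in KO1 to KO4 and 37.6, 38.0, 32.0 and 43.9 CPM in WT1 to WT4. Only WT4 reached into the KO range (log2 fold change 0.24, SE 0.093, adjusted p 0.427, edgeR). Without WT3 this value was 0.15, and with strain label as a covariate 0.096. Mrpl58 (chromosome 11, 115403724 to 115412674), a peptidyl-tRNA hydrolase built into the ribosome that frees stalled ribosomes, stood at 19.2, 23.4, 22.5 and 21.1 CPM in KO1 to KO4 and at 14.5, 16.5, 21.6 and 20.3 CPM in WT1 to WT4. WT3 and WT4 lay above KO1 (log2 fold change 0.23, SE 0.084, adjusted p 0.413, edgeR). Over the 22 alternative fits this value ran from 0.14 to 0.27.

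Mrpl12 of the stalk (chromosome 11, 120484637 to 120488754) and Mrpl4 of the core of the large subunit (chromosome 9, 21001252 to 21008839) varied more with libraries KO1 and WT1 than with genotype. Mrpl12 stood at 7.67, 17.0, 19.5 and 20.8 CPM in KO1 to KO4 and at 6.40, 14.5, 20.9 and 16.1 CPM in WT1 to WT4, with the lowest value of each genotype in the library numbered 1 and the highest value of all in WT3. Mrpl4 stood at 11.6, 19.0, 18.6 and 17.99 CPM in KO1 to KO4 and at 8.10, 15.8, 18.6 and 16.2 CPM in WT1 to WT4. Their log2 fold changes were 0.20 (SE 0.075, adjusted p 0.417, edgeR) and 0.21 (SE 0.089, adjusted p 0.459, edgeR). With no surrogate variable they were 0.14 and 0.16, and in lane A alone 0.060 and 0.14. Without both libraries numbered 1 the value of Mrpl12 was 0.27, and with strain label as a covariate 0.43.

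Mrpl3 (ENSMUSG00000032563, chromosome 9, 105053268 to 105077466), near the peptidyl transferase centre and linked to cardiomyopathy in patients, had ranges that did not overlap with a smaller difference. It stood at 57.0, 51.1, 52.5 and 50.1 CPM in KO1 to KO4 and at 49.8, 47.7, 44.2 and 49.8 CPM in WT1 to WT4. Its log2 fold change of 0.096 (SE 0.059, unadjusted p 0.135, edgeR) was made up of 0.17 in lane A and 0.021 in lane B.

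**Figure D4:**
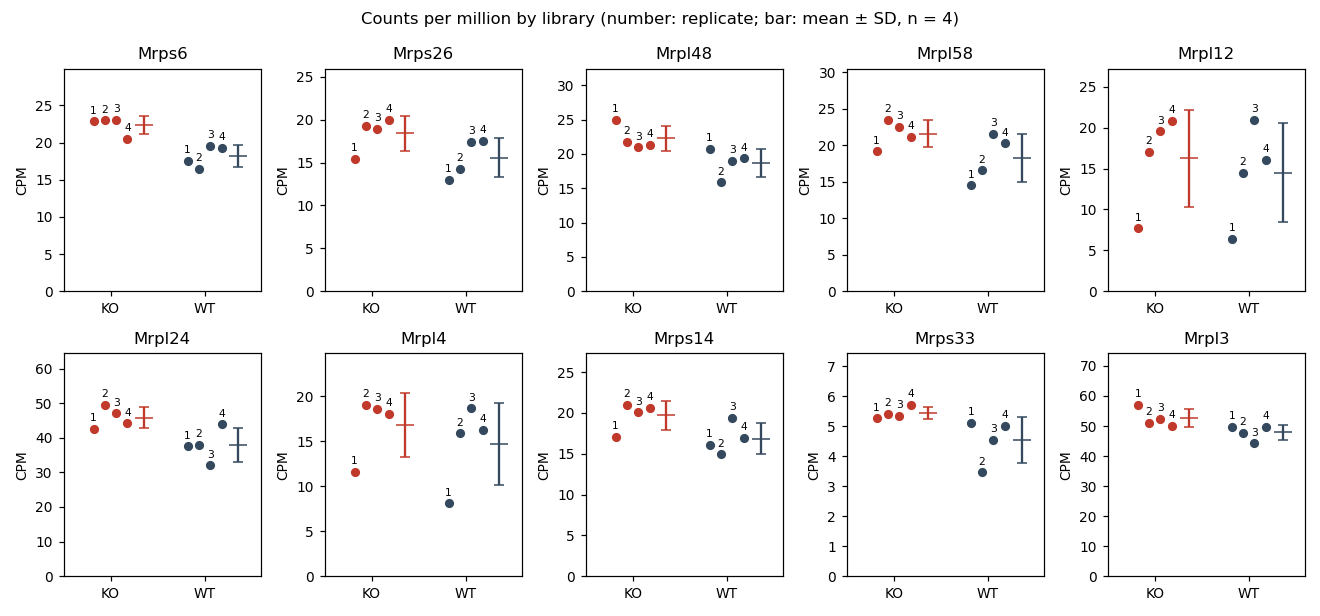
CPM of the 8 genes with the smallest p-values and of Mrps33 and Mrpl3 in each library (points, numbered by replicate; red, KO; grey, WT) with mean ± SD, n = 4 (bars), on axes from 0. The 4 KO points of Mrps6, Mrpl48, Mrps33 and Mrpl3 lie above the 4 WT points, and in Mrpl12 and Mrpl4 the points numbered 1 lie below the rest in both genotypes.

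By place in the ribosome, the 3 genes of the decoding site and the path of the message had the lowest median log2 fold change, 0.035 (2 above 0), and the 7 genes of the central protuberance the highest, 0.13 (6 above 0, 1 higher at an unadjusted p under 0.05, against 4.71% of all tested genes), with Mrpl52 the exception at -0.25 (SE 0.15). The 4 tested stalk genes had a median of 0.10 (3 above 0) and the 7 genes of the exit tunnel and membrane side 0.052 (5 above 0). The 4 genes of the peptidyl transferase core had a median of 0.049 (3 above 0). Each of these 3 groups also held 1 gene higher at an unadjusted p under 0.05, and the decoding group held 0. The 13 genes whose human counterparts are mutated in inherited disease had a median of 0.055 (10 above 0, 3 higher at an unadjusted p under 0.05, where 4.71% of all tested genes were). These groups are small, and standard errors of single genes, with a median of 0.086, were of the size of the medians themselves.

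The 3 genes for homologues of the bacterial S18 protein, of which a ribosome uses different copies at different sites, had values on both sides of 0. Mrps18c stood at 13.5 ± 0.86 CPM in KO and 11.8 ± 0.98 in WT (SD, n = 4), with a log2 fold change of 0.16 (SE 0.082). Mrps18b stood at 10.01 ± 1.28 and 10.7 ± 1.86 CPM, with a log2 fold change of -0.11 (SE 0.089), and Mrps18a at 23.8 ± 4.29 and 22.9 ± 4.89 CPM, with 0.041 (SE 0.061). The adjusted p-values were 0.529, 0.679 and 0.838 (edgeR). Mrps30, the other large subunit protein with a small subunit name, stood at 18.4 ± 3.12 and 17.5 ± 2.38 CPM (log2 fold change 0.024, SE 0.087).

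Of the genes with the highest and lowest levels per length, none reached an unadjusted p under 0.05. Mrpl11 had a log2 fold change of 0.083 (SE 0.070), Mrps17 one of 0.10 (SE 0.056) and Mrpl13 one of 0.092 (SE 0.095). Negative values were found for Mrpl42 (-0.12, SE 0.073), Mrpl32 (-0.051, SE 0.077) and Mrpl20 (-0.030, SE 0.092), and for the scarce Mrpl23 (-0.14, SE 0.13), Mrps28 (-0.20, SE 0.16) and Mrps36 (-0.21, SE 0.23).

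The other genes of mitochondrial translation also gave 0 calls at a BH adjusted p of 0.05 (edgeR), and 2 of 76 at an unadjusted p under 0.05, 1 higher and 1 lower, against 4.71% and 5.78% of all tested genes. That count was 0 with no surrogate variable (0.867% of all genes higher and 1.65% lower) or without KO2, KO3 or WT1, where 2.17% to 2.97% of all genes were higher and 2.98% to 4.09% lower. It was 1 without KO1 (3.45% and 3.94% of all genes), 4 without WT3 (7.07% and 8.76%) and 7 without WT4 (6.92% and 6.35%). The 16 genes for translation factors and their partners had a median log2 fold change of 0.018 (10 above 0), with the largest value, 0.26 (SE 0.13), for Tufm, the elongation factor that delivers aminoacyl-tRNA. The 22 genes for charging mitochondrial tRNAs had a median of 0.029 (14 above 0). In this list the log2 fold change was 0.15 (SE 0.065) for Kars, the lysyl-tRNA synthetase of cytosol and mitochondria, and -0.15 (SE 0.064) for Mars2, the mitochondrial methionyl-tRNA synthetase, with adjusted p-values of 0.464 and 0.458 (edgeR). The 26 assembly factors had a median of 0.014 (16 above 0), and the 5 mitoribosomal proteins with other names 0.051 (3 above 0). Eral1, which chaperones the small subunit RNA, had a log2 fold change of 0.18 (SE 0.081) and Fastkd2, which binds the large subunit RNA, one of -0.19 (SE 0.090). Of the protein-coding genes of the mitochondrial genome, 8 were in the table analysed and 7 were tested. These 7 had a median of 0.018 and none at an unadjusted p under 0.05.

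The spread between libraries was larger than the difference between genotypes. For the median mitochondrial ribosomal protein gene, the highest CPM of the 8 libraries was 1.58 times the lowest, against 1.66 for genes of like abundance and 1.76 for all tested genes. It was above 2 for 20 of the 76 genes and above 3 for 9. Mrps10 was the steadiest at 1.18, and Mrpl34 (6.18), Mrpl14 (5.76) and Mrpl55 (4.75) varied most. WT1 held the lowest value of 38 of the 76 genes and WT2 that of 24, with 9 in KO1 and 5 in the other libraries together. These counts are of CPM by library total. The median log2 deviation from the 8-library mean was -0.246 in WT1 and -0.117 in WT2, against -0.046 in both over all tested genes. With TMM scaling it was -0.210 in WT1 and -0.052 in WT2. The highest value lay in WT3 for 32 genes and in the 4 KO libraries for 7 to 15 each.

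In libraries KO1 and WT1 the mitochondrial ribosomal protein genes were mostly low. The pair was singled out from the data, so its values are descriptions with no test. The mean CPM of the pair divided by that of the other 6 had a median of 0.810 over the 76 genes, against 0.976 over all tested genes and 0.945 over those with a coding transcript. In 38 of the 76 genes (50%) both libraries lay below all 6 others, against 28.8% of all tested genes and 32.5% of those with a coding transcript, and in 6 genes (7.89%) above them, against 20.5% and 20.8%. The cytosolic ribosomal protein genes summed to 2789 CPM in KO1 and 2457 in WT1, the lowest of the 8 libraries, against 2963 to 3694 in the other 6. The lowest ratios were 0.260 for Mrpl34, 0.268 for Mrpl14 and 0.303 for Mrpl55. The 6 genes above were Mrps30, with the highest ratio of 1.31, and Mrpl47, Mrpl1, Mrps22, Mrpl15 and Mrpl39, at 1.13 to 1.23.

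The ratio moved with the GC content of the transcript. For the 10 genes under 45% GC its median was 1.01, for the 24 at 45 to 50% it was 0.905, for the 25 at 50 to 55% it was 0.722, and for the 17 at 55% and above it was 0.541. All tested genes with a coding transcript had, in the same ranges of GC, medians of 1.25, 1.09, 0.825 and 0.546. Mitochondrial ribosomal protein genes thus lay below other genes of like GC in the 3 lower ranges and level with them in the highest. Their transcripts were also shorter, with a median of 1216 bases against 3116, and the parts of GC content, length and RNA quality in the low values were not tested. Without both libraries the median log2 fold change was 0.074, against 0.017 over all genes in that fit, with 62 of 76 genes above 0 and 6 higher at an unadjusted p under 0.05, where 4.08% of all genes in that fit were.

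**Figure D5:**
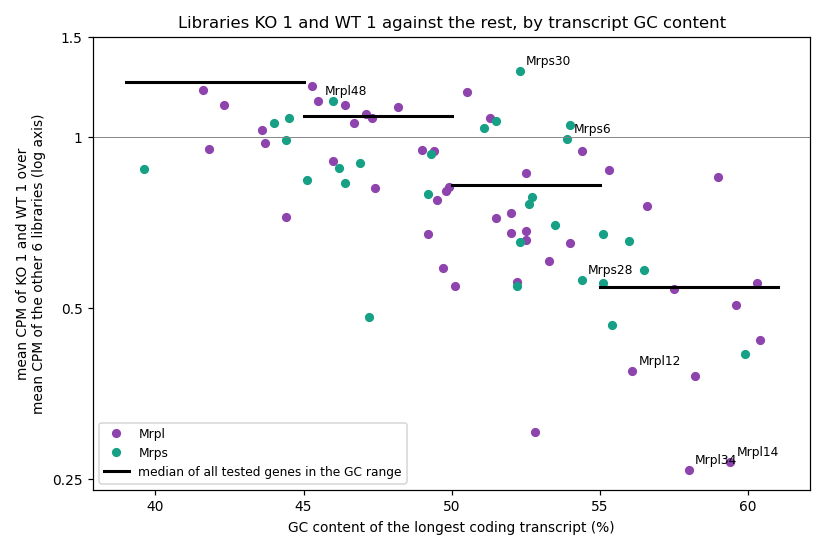
Mean CPM of libraries KO1 and WT1 divided by that of the other 6 libraries (vertical log axis) against the GC content of the longest coding transcript, for each tested gene (purple, Mrpl; green, Mrps). Black bars are the medians of all tested genes with a coding transcript in 4 ranges of GC content, falling from 1.25 to 0.546, and the points fall from a median of 1.01 under 45% GC to 0.541 at 55% and above.

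The sum of markers of cycling and progenitor cells was between 259 and 399 CPM (KO) and between 142 and 310 (WT), and 6 of these 12 genes were higher in KO at an unadjusted p under 0.05, against 4.71% of all tested genes, with none past a BH adjusted p of 0.05 (edgeR). The lowest sum, 142 CPM, was that of WT3, the library with the highest sum of mitochondrial ribosomal protein genes. The part of these cells in the values above was not tested. Copies elsewhere in the genome covered over 50% of the transcript in 13 of the 77 genes, and the bodies of 20 overlapped another protein-coding gene, so the counts of these genes are uncertain to the extent that reads were shared.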

How the data were processed

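Raw read counts per Ensembl gene were deposited by the authors for 8 libraries. According to their methods, they used Cutadapt 1.10 for trimming, dropped reads of ribosomal RNA, mapped the rest to mm10 by STAR 2.5.3a, and counted uniquely mapped reads per gene by HTSeq 0.6.1p1 (union mode). The libraries were made with a stranded kit, but the strand setting of the counting is not given in the sources used here, and read length and layout differ between labels and methods. No count column was left unmatched.

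Symbols came from the reference tables (23260 of 32726 identifiers matched). Here, genes were filtered by filterByExpr, scaled by TMM and tested in edgeR 4.0.16 (R 4.3.3) with a robust quasi-likelihood fit on genotype and 1 surrogate variable (sva 3.50.0), with BH adjustment over all 16272 genes. The SE is the absolute log2 fold change divided by the square root of F. DESeq2 1.42.0 and limma 3.58.1 were alternatives. The test was tested on simulated data of 16147 genes, where it recovered 94.9% of genes changed by 1 on the log2 scale and called 0.0752% of unchanged ones. The simulated counts had the same dispersion for every gene and no libraries that stood apart, unlike these data. No change smaller than 1 was simulated. The recovery therefore does not tell how often changes of the size found here, at most 0.26, would be called. Exon lengths, GC content and copies (blastn 2.17.0, at least 95% identity) came from the older NCBIM37 build and GENCODE annotation, and promoters and positions from RefSeq GRCm38.p6. No molecular identifiers were used, so count floors cover counting error only.

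Named genes were those past BH, those with ranges apart, the 8 smallest p-values, the 5 highest and 5 lowest levels per kb, the S18 homologues, Mrps30, Mrps36, filtered genes, Nuak1 and, in the other lists, up to 3 genes with the smallest p. All other genes named, among them Mrpl52, those ranked per kb of transcript, the extremes of library spread, the genes that stood out in KO1 and WT1, promoter examples and overlapping genes, were chosen after their values were seen. Gene lists and roles were written from background knowledge. The genes and lists were chosen with earlier results of these data known.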

Additional observations from a re-analysis of the deposited data

Results flagged for a closer look

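A gap test (Dixon's, at its 95% level) was applied to each genotype's 4 values. It covered the 23 named mitochondrial ribosomal protein genes tested, the summed CPM (of all, Mrpl and Mrps genes) and the subunit ratio. Of 54 groups of 4 values, 6 held a library set apart from the other 3, where chance alone gives about 1 in 20, or 2.7. KO1 was that library in 4 of the 6. It was the lowest KO library for Mrpl4 (11.6 CPM), for Mrps18b (8.10 CPM) and for the summed Mrps genes (494 CPM), and the highest for Mrps30 (23.0 CPM). The other 2 were Mrps6, where KO4 was lowest in KO at 20.5 CPM, still above every WT library, and Mrpl42, where WT2 was lowest in WT at 21.0 CPM.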

How the results depend on the processing

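No gene of the 76 passed a BH adjusted p of 0.05 under any of the 22 alternative fits, and the median log2 fold change stayed above 0 in all of them, from 0.017 (without WT2, where that of all tested genes was 0.015 and 44 of 76 genes were above 0) to 0.17 (strain label as a covariate). The count of genes higher in KO at an unadjusted p under 0.05, 8 in the fit reported, was 1 with no surrogate variable, 12 with 2 of them, 2 with lane as a term, 0 on lane A alone, 3 on lane B alone, 0 with strain label as a covariate (KO4 against WT2 and WT4) and 5 with no filter. Of all genes, 0.867%, 7.57%, 1.19%, 0.129%, 5.6%, 0.479% and 3.12% were higher in those fits, in that order. Leaving out single libraries gave 2 to 13 (13 without WT3, 2 without KO2, 3 without KO4 or WT2, 4 without KO3 or WT1), and the share of all genes 2.17% to 7.07%. The cause was not tested. None was lower at that threshold in any of these fits. KO1 and WT1 were alike (correlation of 0.80), while replicate numbers 2 to 4 did not pair the libraries (0.012, 0.249 and 0.0022). With a replicate block the count was 4 (2.78% of all genes) and the median 0.043. The large minus small difference in median stayed above 0, from 0.0060 without KO4 to 0.051 without KO3. Of the 23 named genes tested, 17 kept their direction in every fit. Mrpl20 (-0.030) turned to 0.016 with a second surrogate variable, to 0.23 with strain label as a covariate, to 0.014 without KO2 and 0.013 without WT3 (range over left-out libraries -0.085 to 0.014), and to 0.033 without both libraries numbered 1. Mrps30 turned to -0.027 without KO1, -0.0060 without WT1 and -0.016 without WT2 (range -0.027 to 0.074), Mrps18a to -0.0035 on lane A alone, and Mrps28, Mrps18b and Mrps36 to 0.24, 0.017 and 0.012 with strain label as a covariate.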
